A study of Mus musculus with 6 samples.

Results

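Estrogen receptors and the coregulators that nuclear receptors recruit were followed in plasmacytoid dendritic cells (pDCs), the type I interferon producers of the immune system, grown from mouse bone marrow. The set was a fixed list of 9 genes: the estrogen receptors *Esr1* and *Esr2*, the related orphan receptor *Esrra*, the progesterone receptor *Pgr*, the coactivators *Ncoa1*, *Ncoa2* and *Ncoa3*, and the corepressors *Ncor1* and *Nrip1*. The platform table paired 8 of the 9 with a probe set, 1 probe set each, out of 19937 genes that it names through 21640 probe sets, and *Ncor1* was not analysed here. KO pDCs came from cultures with 1 µM tamoxifen, and WT pDCs came from untreated cultures of the same 3 mice, so that each mouse gave 1 KO and 1 WT array. All mice were C57BL/6 and carried floxed alleles of *Gfi1* and *Gfi1b* with ERCre, a Cre recombinase fused to a tamoxifen-binding form of the estrogen receptor and expressed from the *Rosa26* locus. WT is therefore the name of the untreated culture and not of a genotype without these alleles, and an effect of tamoxifen as a receptor ligand and an effect of the deletion cannot be told apart between the groups. The labels call the agent tamoxifen and the design text adds 4OHT, which is 4-hydroxytamoxifen. Both cultures held Flt-3L at 25 ng/ml, and B220+ CD11c+ cells were sorted for RNA.

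Estrogen receptors are ligand-activated transcription factors. Bound to estradiol they attach to DNA as dimers and take up coactivators of the p160 family, encoded by *Ncoa1*, *Ncoa2* and *Ncoa3*, which bring histone acetyltransferases to the gene. Tamoxifen and its hydroxylated form occupy the same ligand pocket and, depending on the tissue, let corepressors such as the N-CoR complex bind in place of coactivators. Estradiol acting through the receptor encoded by *Esr1* is known to promote dendritic cell development in culture and interferon production by pDCs. The array question here is whether the receptors of the drug and their partners stood at other levels in tamoxifen-treated cultures.

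Values are array intensities on a linear scale, with column medians from 72.4 to 72.9 on the KO arrays and from 69.0 to 70.5 on the WT arrays. A background level was read from 1194 olfactory and vomeronasal receptor genes, which blood cells are not expected to use. Their 95th percentile was 64.2 to 71.4 on the KO arrays and 56.1 to 58.3 on the WT arrays. As a group they were higher in KO, with a median log2 difference, KO minus WT, of 0.14, against 0.03 over all named probe sets. *Gfi1* averaged 63.2 ± 3.44 in KO and 49.1 ± 6.49 in WT pDCs, and *Gfi1b* averaged 244 ± 44.2 in KO and 165 ± 12.9 in WT pDCs (SD, n = 3 each). On all 6 arrays *Gfi1* lay under the 95th percentile of the receptor genes and *Gfi1b* above it. These probe sets cover whole transcripts and check nothing about the deleted exons. By genotyping PCR, the paper describes deletion of both genes in such sorted pDCs as inefficient. KO is therefore the name of the treated culture and not of cells shown to lack both genes. All 10 measured pDC markers lay above the 95th percentile of the receptor genes in mean intensity (*Runx2* and *Klk1* of the list were not analysed here). So did all 8 neutrophil, all 8 macrophage, 7 of the 8 stromal and all 4 measured B cell markers, so that this level does not single out pDCs. The pDC list also holds *Itgax* and *Ptprc*, the genes of the sorting markers CD11c and B220. The labels give no sex, and *Xist*, transcribed from the inactive X, stood at 24.6 on the KO and 23.9 on the WT array of mouse 3 and between 1893 and 2449 on the other 4 arrays. The Y-linked *Eif2s3y* stood at 315 on the KO and 269 on the WT array of mouse 3 and between 6.43 and 8.03 on the other 4. By these genes mouse 3 was male and mice 1 and 2 were female. A part of sex in differences between mice was not tested. The precision is limited by the number of arrays.

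**Figure D1:**
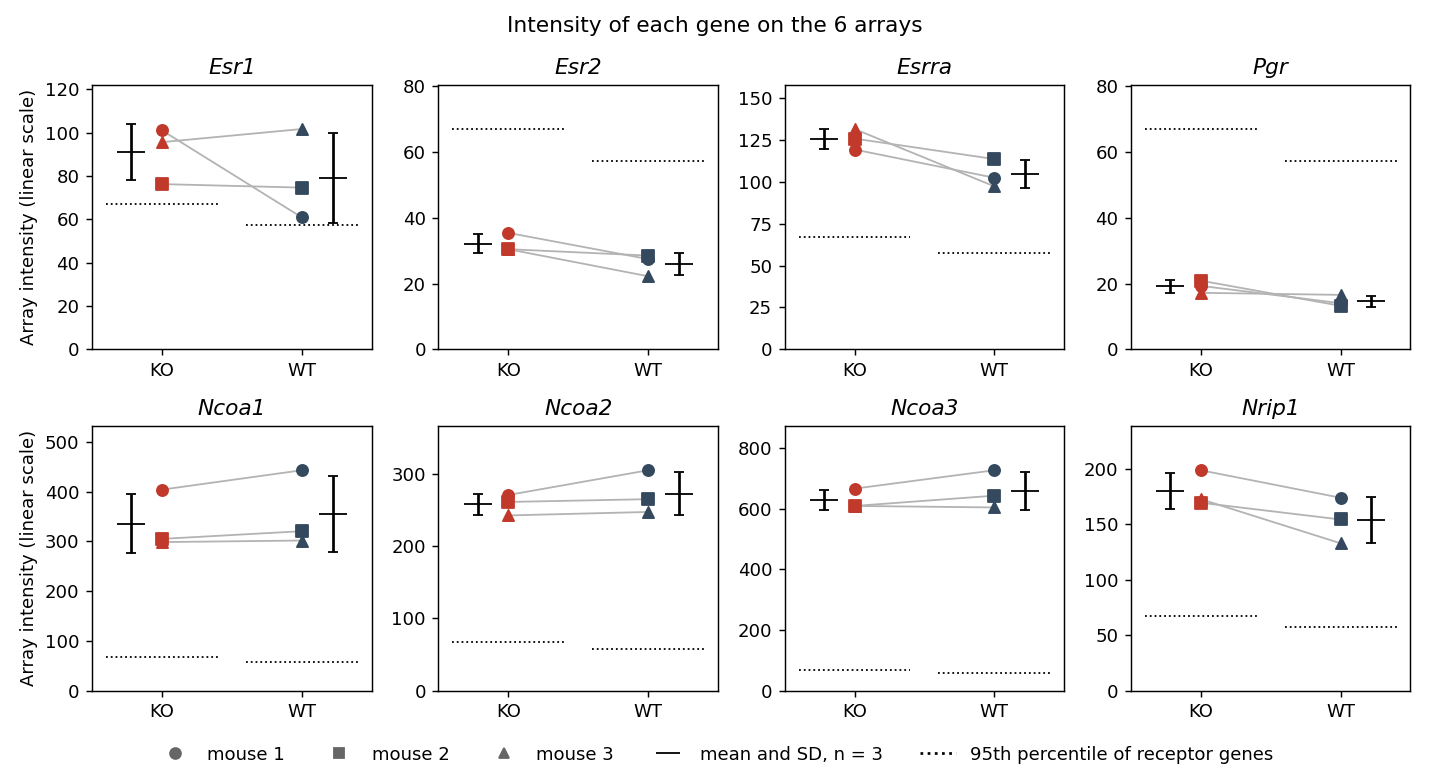
Intensity (linear scale) of each of the 8 measured genes, with KO cultures at the left and WT cultures at the right of each panel; symbols are mice, grey lines join the cultures of a mouse, bars are the mean and SD (n = 3), and dotted lines are the mean 95th percentile of the receptor genes in that group. *Esr2* and *Pgr* lie under the dotted lines on all 6 arrays, and *Ncoa1*, *Ncoa2* and *Ncoa3* are highest in both cultures of mouse 1.

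None of the 8 genes passed an adjusted p of 0.05 in limma, and neither did any of the 21640 named probe sets (0%, smallest adjusted p = 0.69). With the mouse as a block in limma the share was also 0%, with a smallest adjusted p of 0.071. In the list, the receptors and *Nrip1* had higher mean log2 values in KO pDCs, by 0.22 to 0.39, and the coactivators of the p160 family had lower ones, by -0.07 to -0.06. At an unadjusted p under 0.05, 2 of the 8 genes stood higher in KO (*Pgr* and *Esrra*), where 5.14% of all named probe sets did, and none stood lower, where 1.9% did. With the mouse as a block 3 of the 8 stood higher (*Esr2* as well), against 7.46% of named probe sets, and none lower, against 5.99%. *Esr2*, *Esrra*, *Pgr* and *Nrip1* were higher in the KO culture of all 3 mice, a pattern seen in 21.3% of named probe sets and in 35.9% of the olfactory and vomeronasal receptor genes. In *Esr2*, *Esrra* and *Pgr* all KO values lay above all WT values, as in 10.2% of named probe sets and 19.9% of those receptor genes, and no member had all KO values below, as 4.65% of named probe sets did. *Ncoa1* and *Ncoa2* were lower in all 3 mice, as were 17.4% of named probe sets and 28.4% of the 10820 at or over the median level, to which both belong, while *Esr1* and *Ncoa3* went in different directions. With 3 arrays against 3 the exact two-sided permutation test of a single gene cannot give less than p = 0.1, which it gave for *Esr2*, *Esrra* and *Pgr*. The exact p was 0.3 for *Nrip1*, 0.5 for *Esr1*, 0.6 for *Ncoa1* and *Ncoa2* and 0.7 for *Ncoa3*. No array of treated cells without the floxed alleles was analysed here.

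**Figure D2:**
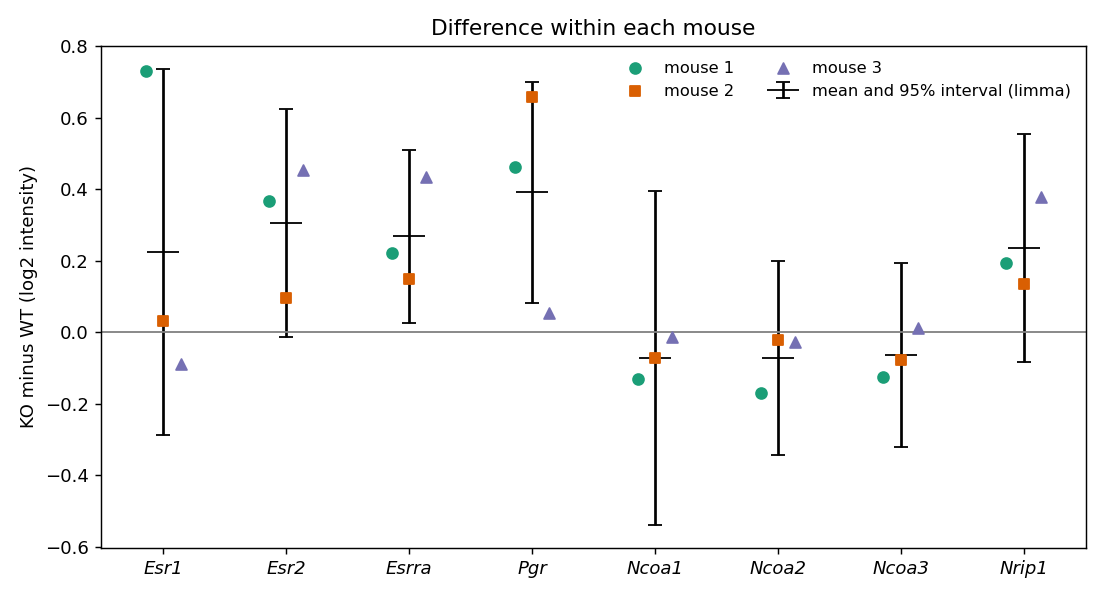
Log2 intensity difference, KO minus WT, of each gene (vertical axis), with 1 symbol per mouse and the mean with its 95% interval from limma in black. The intervals come from the fit without the mouse as a block, so they also hold the spread between mice. Those of *Esrra* (0.03 to 0.51) and *Pgr* (0.08 to 0.70) lie above 0 before adjustment over all probe sets, and the other 6 include 0. With the block the interval of *Esr2* (0.04 to 0.57, not drawn) lies above 0 as well.

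*Esr1* encodes estrogen receptor alpha, the main mediator of estradiol action in immune cells. Its intensity was 101, 76.3 and 95.6 in the KO cultures of mice 1, 2 and 3, against 60.9, 74.6 and 102 in their WT cultures. All 6 arrays lay above the 95th percentile of the receptor genes, and the groups overlapped, with the lowest and the highest of all values both in WT. The log2 difference was 0.22 (standard error 0.21, 95% interval -0.29 to 0.74, adjusted p = 0.82 in limma). Mouse 1 gave 0.73, mouse 2 gave 0.03 and mouse 3 gave -0.09, so that mouse 1 set the size and sign of the mean. Without both arrays of mouse 1 the difference was -0.03. The WT arrays alone spanned 0.74 on the log2 scale, as much as the upper end of the interval. Both groups carry the Cre fusion with its receptor part, and whether the *Esr1* probes also bind that transcript was not tested.

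*Esr2* encodes estrogen receptor beta. Its intensity was 35.4, 30.4 and 30.4 in the KO cultures of mice 1, 2 and 3, against 27.4, 28.5 and 22.2 in their WT cultures, and the groups did not overlap. All of these values lay under the 95th percentile of the receptor genes of their array. The log2 difference was 0.31 (standard error 0.13, 95% interval -0.01 to 0.62, adjusted p = 0.71 in limma), and it was 0.37, 0.10 and 0.45 within mice 1, 2 and 3. Of the olfactory and vomeronasal receptor genes, 16.6% had a difference at least as high. With the mouse as a block the unadjusted p was 0.031 (adjusted p = 0.34).

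*Pgr*, the progesterone receptor, is a textbook target of estrogen receptor alpha in the uterus and breast. It stood at 19.3, 20.9 and 17.2 in the KO cultures of mice 1, 2 and 3, against 14.03, 13.2 and 16.6 in their WT cultures. No KO value fell among the WT values, but all 6 arrays lay well under the 95th percentile of the receptor genes, and the mean level exceeded that of 43.8% of those genes. The log2 difference, 0.39 (standard error 0.13, unadjusted p = 0.021, adjusted p = 0.69 in limma), was the highest of the 8 genes. It was 0.46, 0.66 and 0.05 within mice 1, 2 and 3. A difference at least as high was found in 8.63% of the olfactory and vomeronasal receptor genes, and 12.4% of them stood higher at an unadjusted p under 0.05. The differences of *Pgr* and *Esr2* were thus measured at levels where genes without expected expression were also higher in KO. With a pseudocount of 32 they were 0.13 and 0.14.

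**Figure D3:**
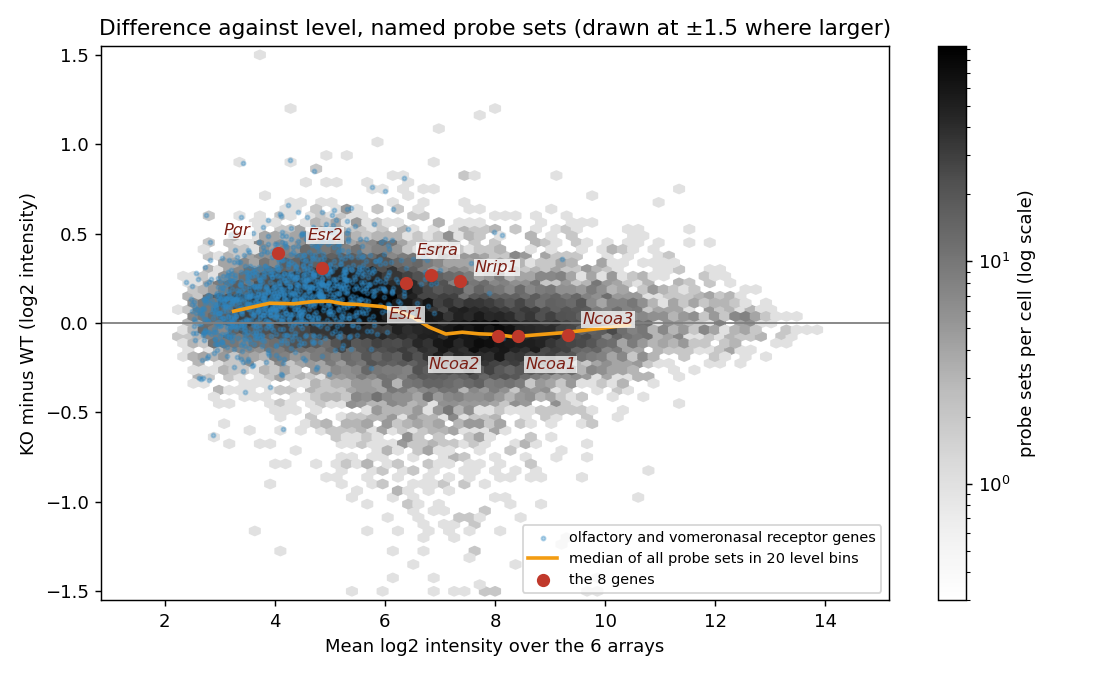
Log2 difference, KO minus WT (vertical axis), against the mean log2 intensity over the 6 arrays (horizontal axis) for the 21640 named probe sets, in grey by density; receptor genes are blue, the orange line joins the medians of 20 bins of level, and the 8 genes are red. Under the median level the differences centre on 0.10 and above it on -0.05, and *Pgr* and *Esr2* lie among the receptor genes.

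*Esrra* encodes the estrogen-related receptor alpha, which binds no estrogen and drives genes of mitochondrial energy metabolism. Its intensity was 119, 126 and 131 in the KO cultures of mice 1, 2 and 3, against 102, 114 and 97.2 in their WT cultures. The lowest KO value lay above the highest WT value, and all 6 arrays were above the 95th percentile of the receptor genes. The mean was 125 ± 6.12 in KO and 104 ± 8.33 in WT pDCs (SD, n = 3 each), and the log2 difference was 0.27 (standard error 0.10, 95% interval 0.03 to 0.51). The unadjusted p was 0.035 and the adjusted p was 0.69 in limma. Within mice 1, 2 and 3 the difference was 0.22, 0.15 and 0.44, and it stayed between 0.18 and 0.33 with any array or mouse left out. Among the 10820 named probe sets at or over the median level, to which *Esrra* belongs, 1.77% stood higher at an unadjusted p under 0.05. In 3.86% of them all KO values lay above all WT values. Centring of every array on its median gave 0.21, with an unadjusted p of 0.085.

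*Nrip1* encodes RIP140, a corepressor that binds nuclear receptors in their ligand-bound state and is itself induced by estrogen in breast cancer cells. Its intensity was 199, 169 and 173 in the KO cultures of mice 1, 2 and 3, against 174, 154 and 133 in their WT cultures. Each KO culture was above the WT culture of its own mouse, but the groups overlapped, since the WT value of mouse 1 was above the KO values of mice 2 and 3. The log2 difference was 0.23 (standard error 0.13, 95% interval -0.08 to 0.55, adjusted p = 0.73 in limma), and it was 0.19, 0.13 and 0.38 within mice 1, 2 and 3. With the mouse as a block the standard error was 0.10 and the unadjusted p was 0.059 (adjusted p = 0.38). *Esrra* and *Nrip1* were the 2 of the 6 genes at or over the median level that were higher in all 3 mice, a pattern that 12% of the probe sets at these levels showed.

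*Ncoa1*, *Ncoa2* and *Ncoa3* encode the p160 coactivators SRC-1, TIF2 (GRIP1) and SRC-3. *Ncoa1* had 404, 305 and 299 in the KO cultures of mice 1, 2 and 3, against 443, 321 and 302 in their WT cultures. Mouse 1 was the highest in both groups, and the KO value was below the WT value of the same mouse in each mouse. The log2 difference was -0.07 (standard error 0.19, 95% interval -0.54 to 0.39, adjusted p = 0.95 in limma), and it was -0.13, -0.07 and -0.01 within mice 1, 2 and 3. With the mouse as a block the standard error was 0.10 and the interval was -0.30 to 0.16.

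*Ncoa2* had 270, 261 and 242 in the KO cultures of mice 1, 2 and 3, against 305, 265 and 247 in their WT cultures. The groups overlapped, and the log2 difference was -0.07 (standard error 0.11, 95% interval -0.35 to 0.20, adjusted p = 0.89 in limma). *Ncoa3*, also known as the breast cancer oncogene AIB1, had 665, 608 and 609 in the KO cultures of mice 1, 2 and 3, against 726, 642 and 604 in their WT cultures. Its groups overlapped too, with a log2 difference of -0.06 (standard error 0.11, 95% interval -0.32 to 0.19, adjusted p = 0.90 in limma). As folds of KO over WT these intervals run from 0.787 to 1.147 for *Ncoa2* and from 0.801 to 1.143 for *Ncoa3*, before any adjustment. The median difference of all probe sets at or over the median level was -0.05.

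All 3 coactivators were highest in mouse 1, in both of its cultures. For *Ncoa1*, that mouse stood above the mean of mice 2 and 3 by 0.42 on the log2 scale in KO cultures and by 0.51 in WT cultures. The same difference was 0.11 in KO and 0.25 in WT cultures for *Ncoa2*, and 0.13 in KO and 0.22 in WT cultures for *Ncoa3*. *Nrip1* also stood higher in mouse 1, by 0.22 in KO and 0.28 in WT cultures, whereas *Esr1* was 0.24 higher in the KO culture and 0.52 lower in the WT culture of mouse 1.

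The arrays of mouse 1 also stood apart in the markers of cell types. The summed intensity of the 10 pDC markers was 40117, 28781 and 25363 in the KO cultures of mice 1, 2 and 3, against 43651, 22670 and 18246 in their WT cultures. The 8 stromal markers, genes of fibroblasts and smooth muscle, summed to 514, 2613 and 2596 in KO cultures of mice 1, 2 and 3, against 560, 6748 and 6842 in their WT cultures. The 8 neutrophil markers summed to 490 to 4197 in KO and 1299 to 9494 in WT cultures. The 8 macrophage markers summed to 4290 to 17299 in KO and 4945 to 19901 in WT cultures. The 4 measured B cell markers summed to 943 to 2863 in KO and 724 to 3959 in WT cultures. All 8 stromal, all 8 macrophage and all 4 measured B cell markers and 6 of the 8 neutrophil markers had lower mean log2 values in KO. So did 61.4% of named probe sets at or over the median level. Higher ones were seen in 9 of the 10 pDC markers, and in 4176 of the 10820 probe sets at these levels. Mouse 1 went the other way in the B cell, stromal and pDC lists. The median difference of B cell markers was 0.14, -0.71 and -0.33 within mice 1, 2 and 3, and that of stromal markers 0.07, -1.30 and -1.42. For pDC markers it was -0.13, 0.36 and 0.58. Macrophage markers were lower within each mouse, with medians of -0.29, -0.55 and -0.32. None of the markers passed an adjusted p of 0.05 in limma. Paired by mouse, 6 neutrophil, 6 stromal and 5 macrophage markers of 8 each stood lower at an unadjusted p under 0.05 in limma. So did 2 of the 4 measured B cell markers. The share was 5.99% of named probe sets and 9.08% of those at or over the median level. Of the 10 pDC markers 2 stood higher, against 7.46% of named probe sets. Some lists turned direction with 1 array left out. Such an omission leaves the groups with different mice, so its values mix mouse with culture. The macrophage median, -0.33 over all arrays, was 0.48 without the KO array of mouse 1, 0.14 when the WT array of mouse 2 was left out and 0.15 when the one of mouse 3 was. The pDC median, 0.28 over all arrays, was -0.02 without the WT array of mouse 3. No marker list turned when a whole mouse was dropped. The macrophage median was then -0.44, -0.30 and -0.35 for the loss of mice 1, 2 and 3. The pDC median was 0.46, 0.24 and 0.10. The part of such cells in the values of the receptors and coregulators was not tested, and in sorted bulk samples fewer cells of a type and less RNA per cell cannot be told apart.

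**Figure D4:**
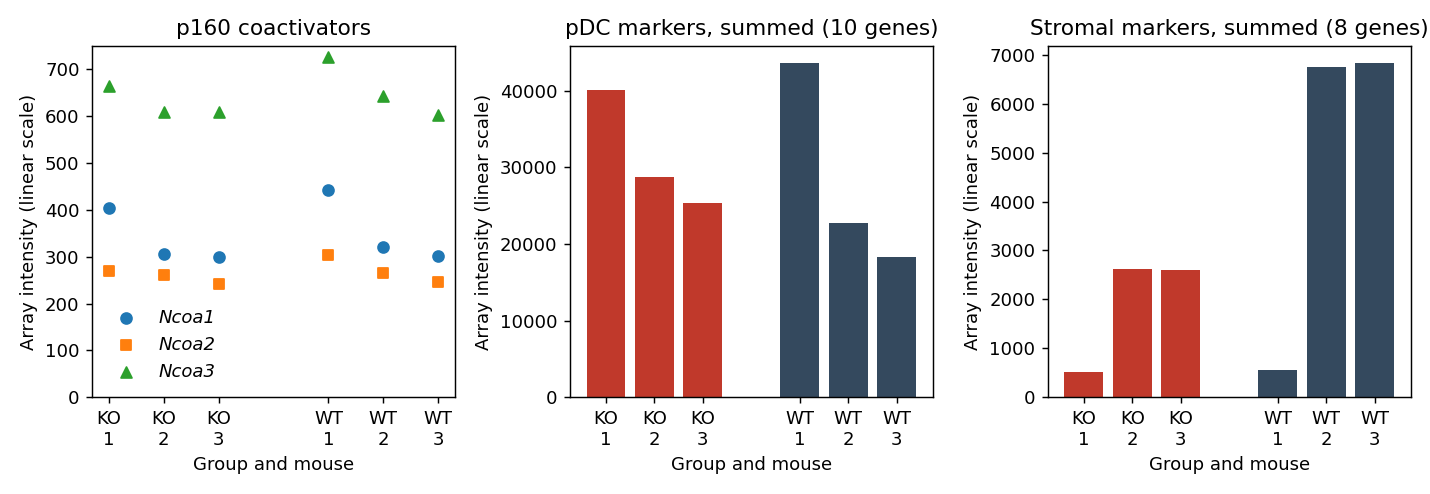
Intensity (linear scale, vertical axes) on each array, with the KO cultures of mice 1 to 3 at the left and the WT cultures at the right: the p160 coactivators, the sum of 10 pDC markers and the sum of 8 stromal markers. The coactivators and the pDC sum are highest in both cultures of mouse 1, where the stromal sum is lowest (514 in KO and 560 in WT).

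Start sites bear on these genes because nuclear receptors act through DNA elements near and far from them. RefSeq windows of 300 bases around annotated starts (GRCm38.p6) were found for 7 of the 9 genes, as 10 windows. An estrogen response element, GGTCANNNTGACC, was searched on both strands and found in none of the 10 windows, as against 0.07% of 32851 windows of the same length. The half-site AGGTCA was in none of them (16.3% of all windows), and neither was TCAAGGTCA, the element of estrogen-related receptors, which contains that half-site (0.423% of all windows). The GC box GGGCGG, the core bound by Sp1 and a site through which estrogen receptors can act without touching DNA, was in 5 of the 10 windows, as against 35.7% of all windows. The windows below belong to *Esrra* and *Nrip1*, the receptor and the corepressor above background that were higher in the KO culture of all 3 mice, and to *Ncoa1*, the coactivator with the widest spread between mice. They are printed 5′ to 3′ on the strand of the gene, and capitals mark the GC box read on either strand.
Esrra, chr19:6921759-6922058, minus strand: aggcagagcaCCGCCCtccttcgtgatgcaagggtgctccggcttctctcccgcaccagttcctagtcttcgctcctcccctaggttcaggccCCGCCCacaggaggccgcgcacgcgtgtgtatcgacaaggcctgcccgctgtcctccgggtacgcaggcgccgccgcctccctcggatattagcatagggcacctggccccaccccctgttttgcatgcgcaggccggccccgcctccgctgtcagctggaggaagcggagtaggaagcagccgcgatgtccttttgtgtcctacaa
Nrip1, chr16:76373000-76373299, minus strand: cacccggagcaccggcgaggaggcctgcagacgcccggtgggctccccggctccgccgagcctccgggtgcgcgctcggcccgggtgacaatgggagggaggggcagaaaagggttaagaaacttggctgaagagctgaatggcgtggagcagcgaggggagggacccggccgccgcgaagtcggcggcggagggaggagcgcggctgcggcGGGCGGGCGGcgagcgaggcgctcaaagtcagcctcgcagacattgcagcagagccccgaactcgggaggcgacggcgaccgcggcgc
Ncoa1, chr12:4477133-4477432, minus strand: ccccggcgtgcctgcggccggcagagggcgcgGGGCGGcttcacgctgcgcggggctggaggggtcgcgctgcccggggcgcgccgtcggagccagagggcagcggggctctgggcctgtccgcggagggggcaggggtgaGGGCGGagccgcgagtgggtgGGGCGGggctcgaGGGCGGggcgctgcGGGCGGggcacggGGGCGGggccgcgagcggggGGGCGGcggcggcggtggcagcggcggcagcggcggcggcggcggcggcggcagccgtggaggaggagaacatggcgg
The *Esrra* window held 2 such boxes, the *Nrip1* window held 2 that overlap each other, and the *Ncoa1* window held 7 and had a GC content of 84.7%. The other annotated start of *Nrip1* held none. A match describes the letters of the window only.

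The other genes of the system were taken from lists written from textbook knowledge. In limma none of them reached an adjusted p of 0.05, whether or not the mouse was a block. Of 45 other nuclear receptors 41 were measured, with a median log2 difference of 0.00, against 0.03 over all named probe sets. *Rorb*, a retinoid-related orphan receptor, and *Nr1i3*, the xenobiotic receptor CAR, stood higher at an unadjusted p under 0.05, by 0.34 (standard error 0.12) and 0.24 (standard error 0.10), and *Vdr*, the vitamin D receptor, stood lower, by -0.35 (standard error 0.13). Of all named probe sets 5.14% stood higher and 1.9% lower at that threshold. *Rorb* averaged 25.8 ± 2.34 in KO and 20.4 ± 2.20 in WT pDCs, and *Nr1i3* averaged 50.3 ± 4.01 in KO and 42.5 ± 1.64 in WT pDCs (SD, n = 3 each), so that both lay at background. *Vdr* averaged 71.4 ± 2.09 in KO and 91.5 ± 15.1 in WT pDCs, above that level, and was lower in the KO culture of all 3 mice (-0.16, -0.22 and -0.66). Paired by mouse, 5 of the 41 stood lower at an unadjusted p under 0.05 in limma, against 5.99% of named probe sets. At or over the median level that share was 9.08%. The same 2 stood higher, against 7.46% of named probe sets. The 5 were *Vdr*, *Thra*, *Rora*, *Nr1d1* and *Nr1d2*, each above background on all 6 arrays. *Thra*, a thyroid hormone receptor, averaged 153 ± 34.6 in KO and 214 ± 56.1 in WT pDCs (SD, n = 3 each). Its differences within mice 1, 2 and 3 were -0.38, -0.52 and -0.52, with an unadjusted p of 0.0023 and an adjusted p of 0.29 from limma with the block, against an unadjusted p of 0.088 without it. *Rora*, a retinoid-related orphan receptor, was at -0.30, and the heme-binding repressors *Nr1d1* and *Nr1d2* were at -0.41 and -0.23. *Rxrg*, a retinoid X receptor, was at 0.30 (standard error 0.14), with means of 28.6 in KO and 22.9 in WT pDCs, again at background.

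Among the other coregulators, the 21 coactivators had a median log2 difference of -0.01 and the 18 measured of 19 corepressors one of -0.10. No gene of either list reached an unadjusted p under 0.05 in limma without the block. *Ncoa6*, a coactivator of the ASC-2 complex, was at -0.20 (standard error 0.09) and *Ncoa7*, an estrogen receptor-associated protein, at -0.26 (standard error 0.13). *Kat2b*, the acetyltransferase PCAF, was at -0.14 and *Cited1*, a CBP-binding coactivator, at 0.23. Of the 18 corepressors, 17 lay at or over the median level, where 61.4% of named probe sets had lower means in KO. In the list 15 had lower and 3 had higher mean values in KO. *Rcor1*, a subunit of the CoREST complex, was at -0.17 (standard error 0.08), *Hdac2*, a histone deacetylase, at -0.27 (standard error 0.14), *Ctbp2* at -0.40 (standard error 0.25) and *Kdm1a*, the demethylase LSD1, at -0.12 (standard error 0.09). With the mouse as a block *Ctbp2* had an unadjusted p of 0.0065 and an adjusted p of 0.30 in limma, and no other gene of either list was under an unadjusted 0.05. With the block 5.99% of named probe sets stood lower at that threshold.

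The chaperones that hold steroid receptors in a ligand-ready state were lower in mean value in KO pDCs in all 11 measured of 12, with a median log2 difference of -0.16. All 11 lay at or over the median level, where 61.4% of named probe sets had lower means in KO, with a median of -0.05. In all 3 mice 7 of the 11 were lower, against 28.4% of the probe sets at these levels. At an unadjusted p under 0.05 in limma without the block, 2 stood lower (*Bag1* and *St13*), as did 320 of the 10820 probe sets at these levels. With the block 3 did (*Ahsa1* as well), against 9.08% of probe sets at these levels. *Bag1*, a co-chaperone of Hsp70, averaged 977 ± 98.8 in KO and 1296 ± 88.7 in WT pDCs (SD, n = 3 each), a log2 difference of -0.41 (standard error 0.11, unadjusted p = 0.010, adjusted p = 0.69 in limma). *St13*, the Hsp70-interacting protein Hip, averaged 511 ± 42.2 in KO and 686 ± 99.2 in WT pDCs, a log2 difference of -0.42 (standard error 0.14, unadjusted p = 0.021, adjusted p = 0.69 in limma). *Ppid*, an immunophilin of receptor complexes, was at -0.20 (standard error 0.09) and *Ahsa1*, an activator of Hsp90, at -0.25 (standard error 0.12). *Hsp90aa1*, the inducible Hsp90, was at -0.16 (standard error 0.10).

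Genes that estrogen induces in breast or uterus had a median log2 difference of -0.04 over 28 measured of 31. *Foxa1*, a pioneer factor for estrogen receptor alpha rather than a plain target, was at 0.31 (standard error 0.09, unadjusted p = 0.011, adjusted p = 0.69 in limma), with means of 58.6 ± 2.25 in KO and 47.4 ± 1.75 in WT pDCs (SD, n = 3 each), both under the 95th percentile of the receptor genes. *Wnt4*, a secreted ligand, was at 0.27 (standard error 0.14) and *Fhl2*, a LIM protein, at -0.40 (standard error 0.25). *Ltf*, lactoferrin, which estrogen induces in the mouse uterus and neutrophils store in granules, was at -1.42 (standard error 0.65, adjusted p = 0.71 in limma), and it also belongs to the neutrophil markers, which had a median of -1.46. *Greb1*, an early estrogen target, had means of 19.2 in KO and 19.3 in WT pDCs, at background, and *Myc* was at -0.81 (standard error 0.75). Paired by mouse, 5 of the 28 stood lower at an unadjusted p under 0.05 in limma (*Myc*, *Igf1*, *Ltf*, *Cxcl12* and *Fhl2*), against 5.99% of named probe sets. Higher were 2 (*Foxa1* and *Ccnd1*), against 7.46% of named probe sets. *Ccnd1*, the cell cycle regulator cyclin D1, was at 0.39, with 0.18, 0.51 and 0.48 within mice 1, 2 and 3, and *Igf1*, a growth factor, was at -0.79, with -0.94, -0.54 and -0.88. Genes that bind, make or clear estrogens and tamoxifen had a median of -0.05 over 15 measured of 20, and none had an unadjusted p under 0.05 in limma without the block. With it 1 of the 15 stood lower, against 5.99% of named probe sets. It was *Cyp1b1*, an estrogen-hydroxylating cytochrome, at -0.91 (unadjusted p = 0.0015, adjusted p = 0.29 in limma with the block). In that list *Cyp2d22*, a cytochrome of the family that hydroxylates tamoxifen, was at 0.15 (standard error 0.09), *Hsd17b4* at -0.16 (standard error 0.13), *Sult1a1*, a sulfotransferase, at 0.19 (standard error 0.16) and *Sult1e1*, the estrogen sulfotransferase, at 0.24 (standard error 0.14), with means of 8.62 in KO and 7.38 in WT pDCs.

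**Figure D5:**
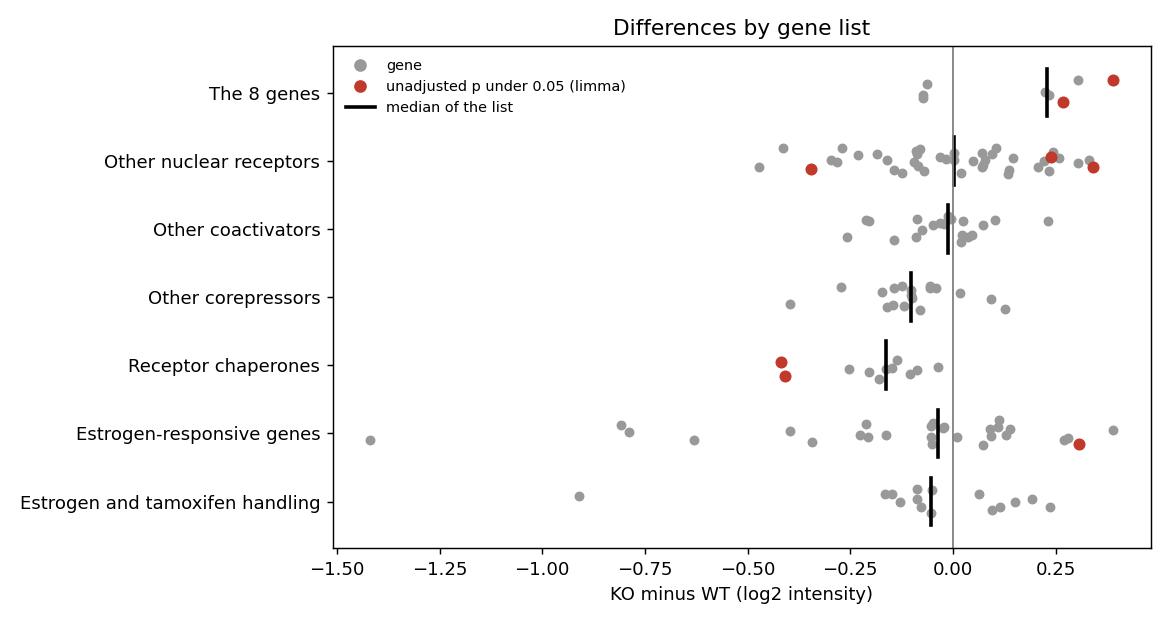
Log2 differences, KO minus WT (horizontal axis), of the 8 genes and of 6 lists of related genes (rows), with 1 point per gene, red where the unadjusted p of limma was under 0.05, and a black bar at the median. The median of the receptor chaperones lies at -0.16, with all 11 points below 0, and that of the 8 genes at 0.23.

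The genes whose log2 intensity followed each member most closely over the 6 arrays were read off as a description, among all named genes and without a test. With 3 mice that each gave 2 arrays and so many genes, high coefficients are common. Closest to *Esr1* were *Ldb2* and *Cacng3* (Pearson's r of 0.98 each), and closest to *Pgr* were *Olfr449*, an olfactory receptor, and *Rgs5* (1.00 and 0.99). *Bsnd* and *Pias3* were closest to *Esr2* (0.99 each), *9130213A22Rik* and *Tcap* to *Esrra* (0.99 each), and *Faap100* and *Fbrsl1* to *Nrip1* (1.00 each). *Syf2* and *Ep400* were closest to *Ncoa1*, *1700029J07Rik* and *Mecr* to *Ncoa2*, and *Helz* and *Ppil4* to *Ncoa3*, with coefficients of 0.99 to 1.00.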

How the data were processed

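RNA of B220+ CD11c+ pDCs (200 ng per sample) was hybridised to 6 Affymetrix Mouse Gene 1.0 ST arrays, 3 KO and 3 WT. The authors deposited intensities on a linear scale for 34760 probe sets, the scale being read from the values. The background correction, any normalization and the summary method are not given in the sources used here. Intensities were log2-transformed as deposited, without normalization or filter. The platform table pairs 21640 probe sets with 1 symbol, 1321 with several and 11799 with none. The probe set with the highest mean stood for a gene. The 2 groups were compared with limma 3.58.1 (lmFit, eBayes; R version 4.3.3) in a two-sided test, and p-values were adjusted over the 21640 probe sets by Benjamini-Hochberg (threshold 0.05). Cultures of the same mouse are paired by the labels. After group means were taken off, KO and WT arrays of mice 1, 2 and 3 correlated with r of 0.81, 0.51 and 0.67 over probe sets. Across mice 2 and 3 the values were nearly as high as within mouse 2 (0.50 for KO 3 with WT 2, 0.42 for KO 2 with WT 3). Between mouse 1 and the others they were -0.72 to -0.54. With group means taken off, a high value within mouse 1 brings negative ones with the other mice. Their sign is therefore no separate measure of how far mouse 1 differed. An alternative fit had the mouse as a block. Tested on simulated data for KO minus WT (21640 genes), the fit recovered 8.77% of 1.5-fold changes and 61.6% of 2-fold changes.

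Members, lists and tests were chosen with earlier results of these data known. Named genes were the members, *Gfi1* and *Gfi1b*, up to 4 genes per list with the smallest p, and the 2 genes most like each member. *Xist*, *Eif2s3y*, *Hsp90aa1*, *Greb1*, *Myc* and the other genes with an unadjusted p under 0.05 only with the block were named after their values were seen. Promoter windows came from RefSeq tables for GRCm38.p6. Alternatives covered normalization, floor, pseudocount, filter, variance model, array weights and left-out arrays.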

Additional observations from a re-analysis of the deposited data

How the results depend on the processing

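No member passed the adjusted p of 0.05 in limma under any alternative run, including the mouse as a block and each array or mouse left out. The block left every log2 difference as it was and gave 3 members an unadjusted p under 0.05 in place of 2, adding *Esr2*, and it changed no other call of a member. Counts in the lists of other genes did change with the block and stand beside them. The number of members under an unadjusted 0.05 was 1 after quantile normalization of the deposited values and with arrays centred on their medians. It was also 1 with a pseudocount of 32, with dim probe sets left out (which removes *Esr2* and *Pgr* from the fit) and with array weights. It was 0 to 1 with an array or a mouse left out. The number of named probe sets with an adjusted p under 0.05 was 0 to 108 with an array or a mouse left out, with 108 reached without both arrays of mouse 1. With the block and 1 mouse left out, an alternative added after seeing the data, it was 513 without mouse 1, and the member count was 0, 1 and 1 without mice 1, 2 and 3.

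Under the alternatives other than left-out arrays every measured member kept the sign of its difference, with *Esrra* between 0.21 and 0.27, *Nrip1* between 0.18 and 0.28, *Pgr* between 0.09 (floor at the 20th percentile) and 0.49 (array weights) and *Esr2* between 0.14 and 0.31. With an array or a mouse left out, *Esr1* lay between -0.029 and 0.42, also at -0.029 with the block and without mouse 1. *Ncoa1* lay between -0.21 and 0.10, *Ncoa2* between -0.14 and 0.010 and *Ncoa3* between -0.12 and 0.010, each with its highest value without the WT array of mouse 1. That omission keeps the KO array of the mouse with the highest coactivator levels. With both arrays of mouse 1, 2 or 3 left out, *Ncoa1* was at -0.04, -0.07 and -0.10. *Ncoa2* was then at -0.02, -0.10 and -0.10, and *Ncoa3* at -0.03, -0.06 and -0.10. *Esr2* (0.19 to 0.41), *Esrra* (0.18 to 0.33), *Nrip1* (0.13 to 0.33) and *Pgr* (0.26 to 0.56) kept their sign. Levels of *Esr2* and *Pgr* within background limit what their differences can show.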
